A study of Mus musculus with 4 samples.

Results

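Sla, Bend6 and Fam19a2 are 3 of the 23240 rows of a gene count table from cells sorted from mouse cortex on embryonic day 15.5. They were chosen by symbol because their rises in neurons were among the largest of the well-measured genes. The comparison of neurons with neural progenitor cells (NPCs) that chose them is therefore described for these 3 genes and not tested. All 3 passed the filter on low counts, which 15292 rows passed.

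Heterozygous Nestin-GFP mice were crossed with homozygous DCX-mRFP mice, and the embryos used carried both reporters, so both groups share the same genotype. Nestin is a filament protein of progenitors and doublecortin (DCX) a microtubule-binding protein of young neurons. Dissociated cortical cells that were green but not red made up the NPC group, and cells that were green and red made up the neuron group, which therefore held young cells that still carried GFP. Each group had 2 RNA-seq libraries of total RNA, which the labels call duplicates. The labels do not say whether the duplicates came from separate litters, so the spread behind each p-value may be technical and speaks for these libraries alone. The libraries held 52611828 to 55615142 counts.

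The proteins of the 3 genes act in different places. Sla encodes the Src-like adaptor protein (SLAP), which has an SH3 and an SH2 domain but no kinase domain, recruits Cbl ubiquitin ligases to activated receptors and is best known for lowering T cell receptor signals. Bend6 encodes a nuclear protein with a BEN domain that binds Rbpj, the DNA-binding factor of the Notch pathway, and represses Notch targets in neural cells. Notch signals keep progenitors from becoming neurons. Fam19a2, now also called Tafa2, encodes a small secreted protein of the chemokine-like TAFA family, which is expressed mainly in the brain. TAFA proteins bind neurexins, the presynaptic adhesion receptors.

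Promoter sequences from RefSeq (GRCm38.p6) matched Bend6 and Fam19a2, 2 of the 3 genes. The stretches below lie before every annotated transcript of each gene. They are shown because the GC content of their promoters stood near opposite ends of the promoter range. Capitals mark a match to the E-box CANNTG, the motif bound by proneural factors.
Bend6 promoter: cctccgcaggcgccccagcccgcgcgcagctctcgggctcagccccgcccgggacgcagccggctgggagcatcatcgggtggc
Fam19a2 promoter: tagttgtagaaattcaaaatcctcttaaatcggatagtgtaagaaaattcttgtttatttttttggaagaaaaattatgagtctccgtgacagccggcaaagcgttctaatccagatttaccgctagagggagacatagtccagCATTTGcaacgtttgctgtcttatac

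The Bend6 stretch is chr1:33907934-33908017 on the minus strand, with 84 bases, a GC content of 79.8% and 11 CpG sites. The Fam19a2 stretch is chr10:123263826-123263995 on the plus strand, with 170 bases, a GC content of 37.1% and 6 CpG sites. Over the whole 250 bases before the start, the 2 annotated Bend6 starts had a GC content of 83.6% and 80.8%, above 99.7% and 99.0% of the 32851 promoters in the table. The Fam19a2 window had 38.8%, above 9.7% of promoters. The observed over expected CpG ratio was 1.04 and 1.08 for Bend6, above 96.0% and 97.4% of promoters. For Fam19a2 it was 0.646, above 69.3% of promoters. Bend6 and Fam19a2 were both picked for large rises, so their similar changes follow from the choice. A link between promoter composition and change was not tested. The E-box CANNTG, which reads the same on both strands in this form, occurred 1 and 0 times in the Bend6 windows and 2 times in the Fam19a2 window, and 66.2% of all promoters held it at least once. The core of the Rbpj motif, TGGGAA or its reverse complement TTCCCA, occurred 0 times in these windows, and 21.6% of all promoters held it.

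Sla was the most abundant of the 3 in counts. It was at 29.8 and 30.6 CPM (the count relative to the TMM-scaled size of its library) in the NPC libraries and at 325 and 306 CPM in the neuron libraries. The raw counts behind these values were 1714, 1826, 15882 and 15798. Both neuron libraries lay above both NPC libraries, as they did for 41.9% of all genes tested. The group means were 30.2 ± 0.587 and 316 ± 13.6 CPM (SD, n = 2 each), a log2 change of 3.39 ± 0.06 (standard error) or 10.5-fold.

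Bend6 was at 11.5 and 12.6 CPM in NPCs and at 110.2 and 108 CPM in neurons, from 663, 751, 5382 and 5582 counts. The groups did not overlap, with neurons higher, as for 41.9% of all genes tested. The means were 12.05 ± 0.756 and 109 ± 1.47 CPM (SD, n = 2 each), a log2 change of 3.18 ± 0.07 or 9.06-fold.

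Fam19a2 was at 7.73 and 7.37 CPM in NPCs and at 85.5 and 84.3 CPM in neurons, from 445, 440, 4174 and 4354 counts. Its groups also did not overlap. For genes picked for large rises, this follows from the choice. The means were 7.55 ± 0.251 and 84.9 ± 0.798 CPM (SD, n = 2 each), a log2 change of 3.49 ± 0.07 or 11.2-fold. In these bulk libraries, fewer cells that express a gene and less RNA per cell cannot be told apart.

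**Figure D1:**
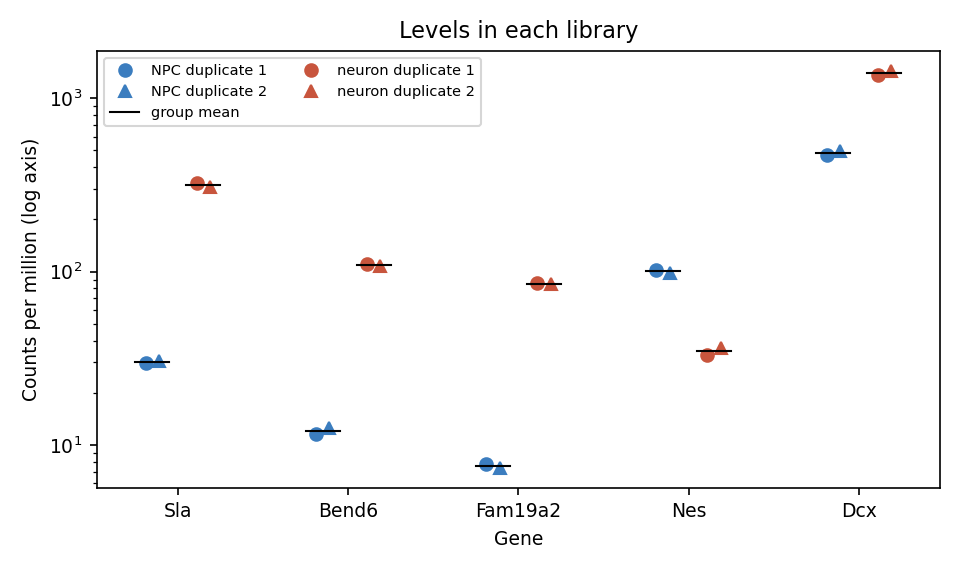
CPM (log axis) of Sla, Bend6, Fam19a2 and the reporter genes Nes and Dcx in each of the 4 libraries; colours mark the group, symbols the duplicate, and short lines the group means. Sla, Bend6 and Fam19a2 are about an order of magnitude higher in both neuron libraries, while Dcx goes from 480.3 to 1399.9 CPM and Nes falls from 100.2 to 34.7 CPM.

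Of all genes tested, 72.6% passed an adjusted p of 0.05 in either direction, so a call alone was the usual outcome here. In all, 35.8% passed as higher in neurons and 36.9% as higher in NPCs (edgeR's quasi-likelihood test, Benjamini-Hochberg adjustment). The groups did not overlap for 86.0% of genes, and for 41.9% they did not overlap with neurons higher. A rise of at least 8-fold that passed was seen for 0.432%. Of the genes that passed, 49.2% were higher in neurons, which became 33.5% when library size was the only scaling and the median log2 change of all genes went from -0.02 to -0.23. The changes of Sla, Bend6 and Fam19a2 were 3.18, 2.97 and 3.28 on that scale.

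Of the 7957 genes that averaged 20 CPM or more, Fam19a2 held rank 3, Sla rank 4 and Bend6 rank 7 by log2 change. The gene directly above Fam19a2 was Nefl, a neurofilament gene, at 3.51, and the gene directly below Sla was Rbfox1, a splicing regulator, at 3.27. The gene directly below Bend6 was Dlg2, a synaptic scaffold gene, at 3.18. With a minimum mean of 10 CPM the ranks were 3, 4 and 10 in the same order. With a minimum of 50 CPM, Sla held rank 2 and Bend6 rank 5, and Fam19a2 fell below the minimum.

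**Figure D2:**
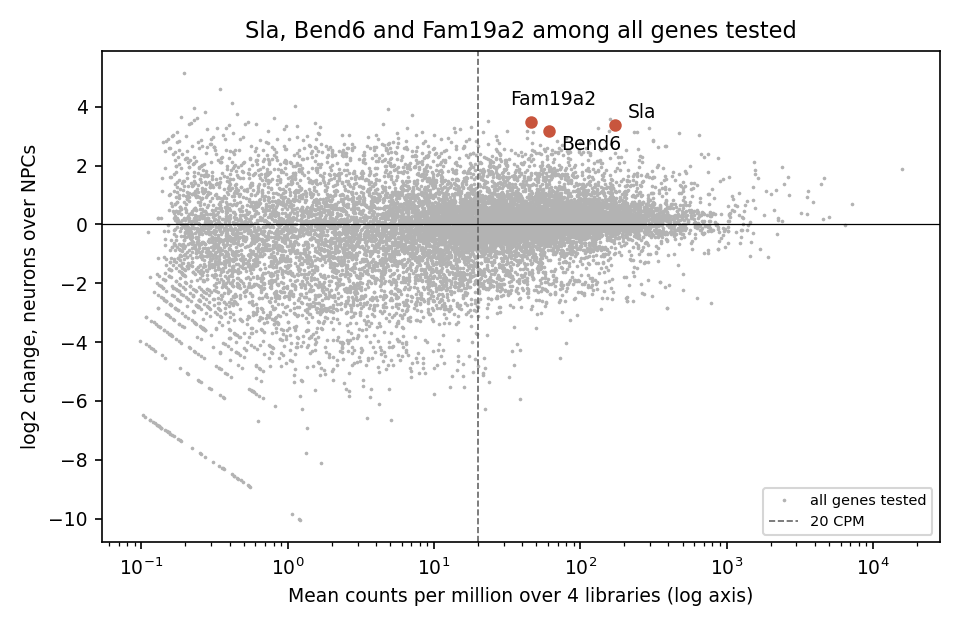
The log2 change of neurons over NPCs against the mean CPM over 4 libraries (log axis) for every gene tested, with Sla, Bend6 and Fam19a2 in red and a dashed line at 20 CPM. The 3 genes lie at the upper edge of the genes right of that line, with changes from 3.18 to 3.49.

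Levels of different genes were compared per length, as CPM per kilobase of exon in the GENCODE M21 annotation, which may not be the annotation behind the counts. In neurons Sla stood at 98.6, Bend6 at 43.9 and Fam19a2 at 19.5 CPM per kilobase. These levels were above those of 95.0%, 87.5% and 73.8% of the tested genes with a length. In NPCs the levels were 9.43, 4.85 and 1.73 CPM per kilobase, above 59.0%, 45.0% and 28.7% of genes. The order was the same in each of the 4 libraries, and no library of one gene overlapped a library of the next within a group. Rbfox1, with a similar change, was at 68.8 CPM per kilobase in neurons, between Sla and Bend6. Nefl, at 12.8, was below Fam19a2.

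The duplicates set the precision of these values. The Bend6 duplicates in NPCs differed by -0.13 on the log2 scale (duplicate 1 minus 2), beyond the quartiles of -0.05 and 0.04 among the 500 genes of nearest mean level, and 89.2% of those genes lay nearer to their median. The Sla duplicates differed by -0.04 in NPCs and by 0.09 in neurons, where the quartiles were -0.04 and 0.07. The Fam19a2 duplicates differed by 0.07 in NPCs, with quartiles of -0.06 and 0.04, and by 0.02 in neurons. Without each library in turn, the log2 changes ranged from 3.35 to 3.44 for Sla, from 3.12 to 3.24 for Bend6 and from 3.46 to 3.52 for Fam19a2.

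The pattern over the 4 libraries was compared between genes as the distance between log2 CPM profiles, each centred on its own mean, again over the 7957 genes of 20 CPM or more. Sla lay nearest to Rbfox1 (distance 0.13), then to Fam19a2 (0.14), and Dync1i1, a dynein intermediate chain gene, and Nefl were also among its nearest 5. Fam19a2 lay nearest to Nefl (0.10) and then to Sla (0.14) and Dync1i1 (0.14). Bend6 lay nearest to Gpr85, an orphan receptor gene (0.10), with Rbfox1 (0.10), the transcription factor gene Bhlhe22 (0.12) and Fam49a (0.15) also among its nearest 5. Sla was at place 12 and Fam19a2 at place 18 in the order from Bend6. With 4 libraries in 2 groups, this distance mostly reflects the size of the change, so it is a description of these libraries.

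The labels were checked with the reporter genes and with marker lists. Nes averaged 100.2 ± 3.50 CPM in the NPC libraries and 34.7 ± 2.40 CPM in the neuron libraries, and Dcx went from 480.3 ± 17.4 to 1399.9 ± 58.7 CPM (SD, n = 2 each). The DCX reporter separated the 2 groups, so the rise of Dcx is no finding. Both groups were sorted as green, so the Nestin reporter did not separate them. Of 16 radial glia genes, 15 passed as higher in NPCs and 1 as higher in neurons, and all 8 intermediate progenitor genes were higher in NPCs. Of 18 pan-neuronal genes, 17 were higher in neurons and 1 did not pass. Of 15 genes of cortical projection neurons, 12 were higher in neurons, 2 did not pass, and 1, Nr4a2, passed as higher in NPCs, which it did not without NPC replicate 1, NPC replicate 2 or neuron replicate 1, or with DESeq2 (0 genes in each case). With library size only, 3 of these genes were higher in NPCs.

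Neuronal transcripts were also present in the progenitor sort, and the share differed between genes. The NPC level was 8.89% of the neuron level for Fam19a2, 9.56% for Sla and 11.0% for Bend6. For Dcx it was 34.3%, for the neuronal tubulin gene Tubb3 25.7% and for the axonal growth gene Stmn2 11.8%. Over the 18 pan-neuronal genes it ran from 8.81% for Nefl to 90.9% for Rbfox3, with a median of 21.5%, and 1 gene was at or below the 11.0% of Bend6. Over the 15 projection neuron genes the median was 36.1%. Because Sla, Bend6 and Fam19a2 were picked for large rises, their low share follows from the choice.

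**Figure D3:**
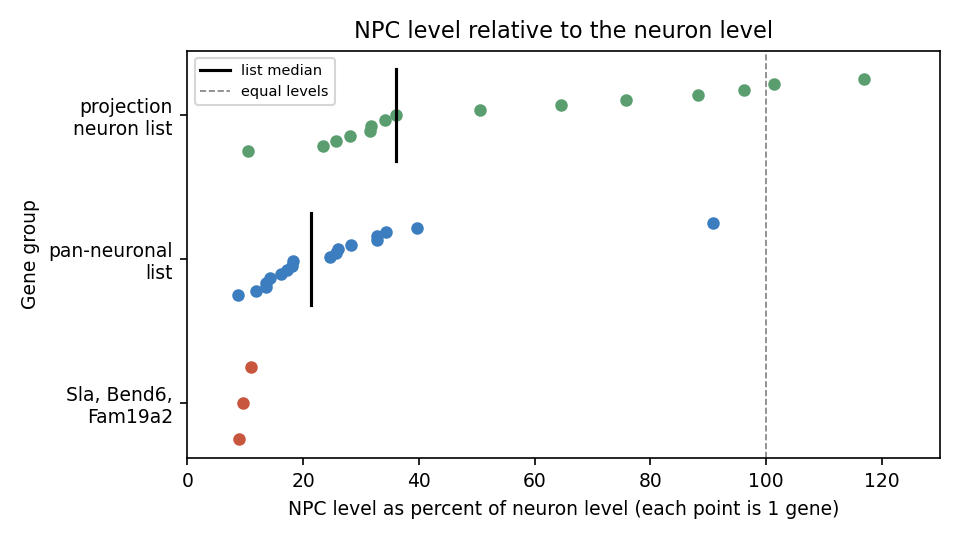
The mean NPC level as a percent of the mean neuron level, with each point 1 gene, for Sla, Bend6 and Fam19a2, for 18 pan-neuronal genes and for 15 genes of cortical projection neurons; black lines are list medians and the dashed line marks equal levels. The 3 genes lie between 8.89% and 11.0%, and the list medians are 21.5% and 36.1%.

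The other TAFA genes, which also encode secreted proteins, did not all move with Fam19a2. Fam19a1 rose from 0.643 and 0.804 CPM to 3.91 and 4.94 CPM, a log2 change of 2.61 ± 0.22 (edgeR adjusted p = 1.4e-08). Both its neuron libraries were above both NPC libraries, as for 41.9% of all genes tested. Fam19a5 was at 23.9 and 22.5 CPM in NPCs and at 28.1 and 25.8 CPM in the neuron libraries, and its log2 change was 0.22 ± 0.08 (edgeR adjusted p = 0.019). That call was lost under upper-quartile scaling (adjusted p = 0.19), under library size only (0.92), where the change was 0.01, without NPC replicate 2 (0.18) and without neuron replicate 1 (0.067). Fam19a4 had 16 and 23 counts in the NPC libraries and 0 in both neuron libraries. Against a floor of 3 counts per library, this was at least 5.55-fold lower in neurons (edgeR adjusted p = 9.7e-05). Fam19a3 had 5, 1, 0 and 2 counts and was not tested.

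Among the neurexins, which TAFA proteins bind, Nrxn2 rose from 20.6 and 20.1 to 45.5 and 52.8 CPM, a log2 change of 1.27 ± 0.08 (edgeR adjusted p = 2.2e-10). Both neuron libraries lay above both NPC libraries, as for 41.9% of all genes tested. Nrxn3 was at 46.7 and 47.5 CPM in NPCs and 52.8 and 56.2 CPM in the neuron libraries, with a log2 change of 0.21 ± 0.06 (edgeR adjusted p = 0.0064). Under upper-quartile scaling (0.13), under library size only (0.98) and without NPC replicate 1 (0.075), Nrxn3 did not pass. All 10 other neurexin ligand genes tested were higher in neurons (median 1.63, against -0.02 for all genes). Among these were Lrrtm1 and Lrrtm4, which encode postsynaptic leucine-rich repeat proteins, with changes of 2.03 ± 0.07 and 2.20 ± 0.08, and the neuroligin gene Nlgn1, with 1.64 ± 0.07.

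Genes with a BEN domain did not move as 1 family. Of the 7 besides Bend6, 2 were higher in neurons and 5 in NPCs, beside 35.8% and 36.9% of all genes tested. Bend5, which encodes a DNA-binding repressor, rose from 22.6 and 22.7 to 80.6 and 70.4 CPM, a log2 change of 1.74 ± 0.07 (edgeR adjusted p = 1.4e-12), and Banp had a change of 0.45 ± 0.07. The largest fall in the family was that of Nacc2, a transcriptional repressor gene, from 21.3 and 23.2 to 6.47 and 7.01 CPM, a log2 change of -1.72 ± 0.10. Bend7 had a change of -1.24 ± 0.16, and Nacc1, Bend3 and Bend4 had changes of -0.45, -0.40 and -0.35. The Bend3 call was lost without neuron replicate 1 (-0.18, edgeR adjusted p = 0.05) and the Bend4 call without NPC replicate 2 (-0.24, edgeR adjusted p = 0.10).

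The Notch pathway, which Bend6 is known to oppose, was lower in neurons at the level of receptors and targets. All 4 receptor genes fell in neurons. Notch1 went from 110.6 and 114 CPM to 21.7 and 23.0 CPM, a log2 change of -2.33 ± 0.06 (edgeR adjusted p = 7.8e-15). Notch2, Notch3 and Notch4 had changes of -2.02, -3.06 and -1.87. All 6 target repressor genes were also lower in neurons. The target gene Hes5 went from 137 and 128 CPM to 18.1 and 15.5 CPM, a log2 change of -2.98 ± 0.08 (edgeR adjusted p = 4.2e-15). Hes1 had a change of -2.80, Nrarp, which feeds back on Notch, -2.27, Hey2 -2.46, Heyl -4.63 and Hey1, the smallest of these falls, -1.20. The 8 ligand genes split, with 5 of them higher in NPCs and 3 higher in neurons (36.9% and 35.8% of all genes tested). Dll1 had a change of -1.52 ± 0.06 and Dner, a neuronal ligand-like gene, one of 1.54 ± 0.06.

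The nuclear partner of Bend6 had a log2 change nearer to 0 than that of any of the 6 targets. Rbpj was at 144 and 158 CPM in NPCs and 116 and 125 CPM in the neuron libraries, and had a log2 change of -0.33 ± 0.06 (edgeR adjusted p = 0.00013). Of the 16 genes for Rbpj and its coregulators, 4 were higher in neurons, 7 in NPCs and 5 did not pass. Among all genes tested, 35.8% were higher in neurons and 36.9% in NPCs. The coactivator gene Maml2 fell with a change of -1.32 ± 0.09, and the corepressor gene Ncor1 had one of 0.15 ± 0.06. With library size only, 0 of the 16 were higher in neurons and 11 in NPCs, and Ncor1 was at -0.06. With upper-quartile factors or without NPC replicate 1, 2 were higher in neurons. Without NPC replicate 1 the Ncor1 call was lost, as it was without NPC replicate 2 (adjusted p = 0.17 in both), with upper-quartile factors (0.05, adjusted p = 0.43) and with the filter of 5 CPM (0.11, adjusted p = 0.077). Of 8 genes known to limit Notch, 1 was higher in neurons, 3 in NPCs and 4 did not pass. Dtx1, a ubiquitin ligase gene, rose with a change of 1.60 ± 0.08 and Hes6 fell with one of -0.97 ± 0.08. Without neuron replicate 1, 3 of these 8 were higher in neurons.

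Notch receptors and targets are expressed in vessels too. All 12 endothelial genes tested were higher in NPCs, with summed levels of 309 and 317 CPM in NPCs and 13.4 and 12.7 CPM in neurons, and 7 of 8 mural cell genes tested were too, with sums over the 9 in the table of 192 and 202 against 10.8 and 11.7 CPM. All 7 oligodendrocyte precursor genes were higher in NPCs, with sums of 195 and 198 against 5.71 and 5.99 CPM. Their part in the Notch results was not tested.

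For Sla, the partners of its protein were examined. The paralog Sla2 was listed at 55.0 and 57.0 CPM in NPCs and at 66.6 and 57.1 CPM in neurons (log2 change 0.14 ± 0.07, edgeR adjusted p = 0.078). Leaving out neuron replicate 2 gave a call, at 0.26 (edgeR adjusted p = 4.2e-05), as did the replicate block (0.035), and with library size only it was at -0.06. This value is uncertain, because Sla2 shares 532 exonic bases on the opposite strand with Rab5if in GENCODE M21 and the use of strand in counting is not given. The Sla2 level was 60.8%, 63.1%, 64.1% and 63.5% of the Rab5if level (listed as 1110008F13Rik) in the 4 libraries. Rab5if also had a small change (0.10 ± 0.07, edgeR adjusted p = 0.17), and rows with little change keep a steady ratio. Whether the 2 rows shared reads was not tested.

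Of the Cbl ubiquitin ligase genes, whose products SLAP recruits, Cbl and Cblb were present in both sorts. Cblc had 3, 0, 1 and 5 counts in the 4 libraries and was not tested. Cblb rose from 49.9 and 49.5 CPM to 92.8 and 103 CPM, a log2 change of 0.98 ± 0.06 (edgeR adjusted p = 3.6e-10). Cbl was at 36.0 and 39.0 CPM in NPCs and 31.7 and 35.2 CPM in the neuron libraries, a difference that missed the threshold (-0.17 ± 0.07, edgeR adjusted p = 0.052). It passed as higher in NPCs without neuron replicate 2 (-0.23, edgeR adjusted p = 0.0031), with the replicate block (0.026), with upper-quartile factors (0.0037), with the filter of 5 CPM (0.023) and with library size only (-0.37, 0.00022). The kinase genes Syk and Zap70, whose products SLAP binds in immune cells, were under 3 CPM in every library. Syk had a change of -1.68 ± 0.29 (edgeR adjusted p = 5.9e-05). Zap70 had one of -1.55 ± 0.55 (edgeR adjusted p = 0.018) that was lost without NPC replicate 2 (0.27), without neuron replicate 1 (0.074), without neuron replicate 2 (0.057) and with DESeq2 (0.11).

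Of 7 tested genes, the Src family kinases and Csk, 2 (Fyn and Csk) were higher in neurons (1 with library size only) and 3 in NPCs. The shares of all genes tested were 35.8% and 36.9%. Fyn, with the most counts of these 7 genes, rose with a change of 0.50 ± 0.05, Yes1 fell with one of -0.72 ± 0.06 and Lyn with one of -3.35 ± 0.16. Lck (-0.47 ± 0.16) was at -0.36 without NPC replicate 1 and did not pass with DESeq2 (-0.46, adjusted p = 0.072). Of 6 tested receptor genes whose products SLAP is reported to bind or lower, 5 were higher in NPCs (3 with the filter of 5 CPM), among them Pdgfra (-5.92 ± 0.10) and Pdgfrb (-4.49 ± 0.11). Of these 5, Pdgfra is also on the list of oligodendrocyte precursor genes, whose median log2 change was -5.58, and Pdgfrb on that of mural cell genes, at -4.51. Csf1r (-1.16 ± 0.13) is on the microglia list, with a median of -1.19, and Cd247 (-0.97 ± 0.17) on the T cell list, with one of -0.94. Each of these medians includes the gene set beside it, so a close match is partly built in. The part of these cell types in the fall of the receptor genes was not tested. The exception was the stem cell factor receptor gene Kit, which rose from 38.9 and 43.1 CPM to 139 and 144 CPM, a log2 change of 1.79 ± 0.06 (edgeR adjusted p = 1.6e-13).

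**Figure D4:**
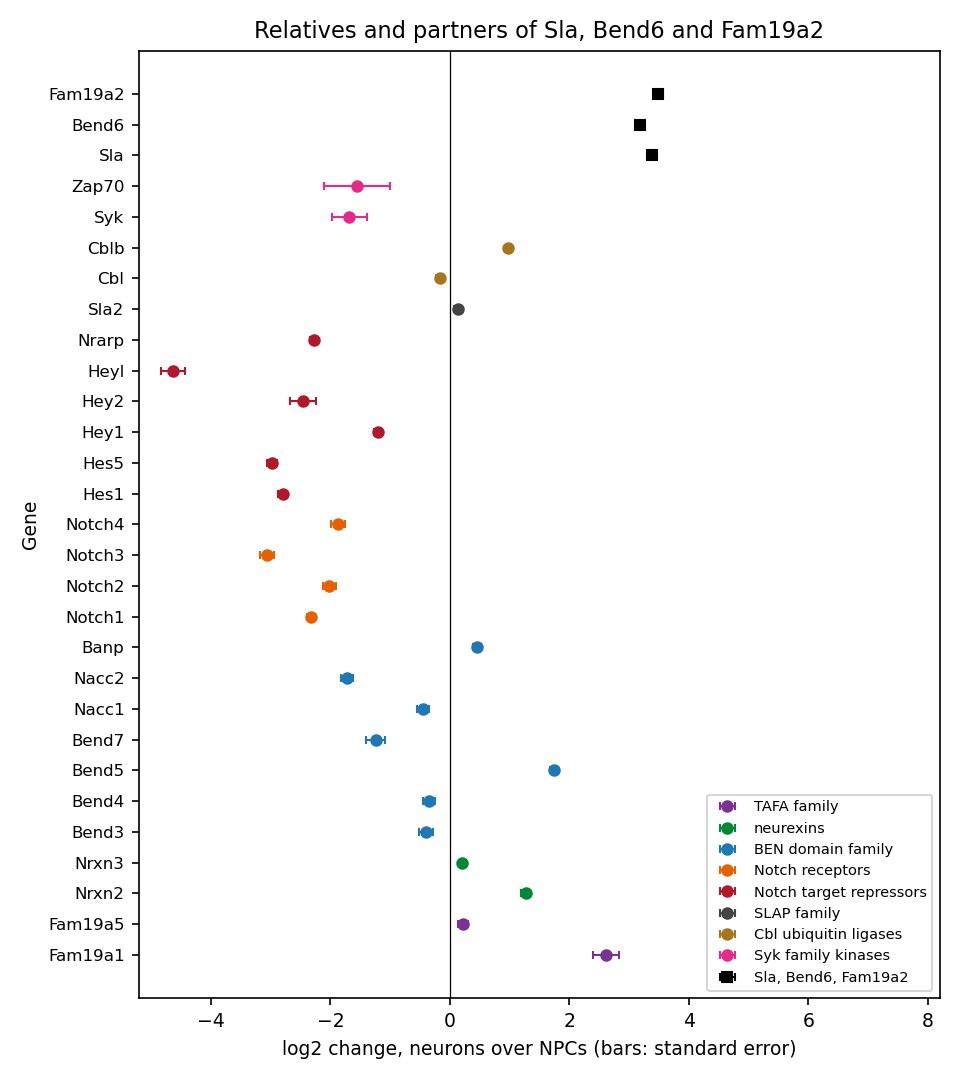
Log2 changes of neurons over NPCs with standard errors for Sla, Bend6 and Fam19a2 (black squares) and for the tested genes of 8 related lists (coloured circles), without Fam19a4, which is at 0 counts in neurons, and other genes not reported here. Notch receptors and targets lie from -4.63 to -1.20 and Nrxn3 and Nrxn2 at 0.21 and 1.27, while BEN domain genes fall on both sides of 0.

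Sla is also known from immune cells, so their markers were measured. All 14 microglia genes were higher in NPCs (8 with the filter of 5 CPM). Their summed levels were 82.7 and 83.4 CPM in NPCs and 42.5 and 41.9 CPM in neurons. Sla was picked for a rise, so its opposite direction follows from the choice. The part of immune cells in the Sla counts was not tested. The changes of Laptm5 and P2ry12 were -1.96 and -1.21. Of 10 T cell genes, 4 were tested and passed as higher in NPCs (2 without NPC replicate 1, NPC replicate 2 or neuron replicate 2, and 1 with DESeq2). The T cell receptor genes Cd3e, Cd3g and Cd3d were at 0 to 0.0387 CPM in every library. Of 7 erythroid genes tested, 7 were higher in NPCs. Hba-a1 and Hba-a2 had nearly the same counts in every library, as had Hbb-b1 and Hbb-b2, so these are not 7 separate measurements.

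The genes around each locus were compared, because strand was not given for the counting. Sla lies on the opposite strand within Tg, the thyroglobulin gene, and shares 0 exonic bases with it. Tg was listed at 0.0695, 0, 0.123 and 0.0775 CPM in the 4 libraries. The neighbour Phf20l1 had a log2 change of 0.32 ± 0.05, which was lost with library size only (0.11, edgeR adjusted p = 0.055), and Wisp1 one of -0.01 ± 0.27 that did not pass. Both changes were nearer to 0 than the 3.39 of Sla, which follows from the choice of Sla for a large rise. Whether reads from these neighbours were counted for Sla was not tested.

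Dst, a cytoskeletal linker gene that lies beside Bend6 on the opposite strand, went from 116 and 115.5 CPM to 153 and 163.5 CPM, a log2 change of 0.45 ± 0.05 (edgeR adjusted p = 1.4e-06). Zfp451, on the other side, had one of -0.17 ± 0.06, which was lost without NPC replicate 2 (-0.13, adjusted p = 0.24) and with DESeq2 (0.062). Beside Fam19a2, the ubiquitin protease gene Usp15 had a change of 0.61 ± 0.05 and the monocarboxylate transporter gene Slc16a7 one of 2.18 ± 0.16 (edgeR adjusted p = 1.9e-09), from 1.67 and 1.64 CPM to 6.88 and 8.10 CPM. Both neuron libraries of Slc16a7 lay above both NPC libraries, as for 41.9% of all genes tested.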

How the data were processed

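The authors deposited 1 table of estimated counts per gene and library, not scaled between libraries. All 88416 values below 10000 were multiples of 1 base in 101 (within 0.01 base). The tools named in the submitters' processing notes, without roles, are SAMtools 0.1.18, TopHat 1.2.0 and CASAVA 1.9, with build mm9. How reads were counted, with which annotation and whether by strand, is not given in the sources used here. Reads shared by copies or by overlapping genes are therefore uncertain.

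Counts were rounded, filtered with filterByExpr (7948 rows removed) and scaled with TMM. Neurons were compared with NPCs by the two-sided quasi-likelihood test of edgeR 4.0.16 in R 4.3.3, unpaired, with adjustment over all 15292 genes at a threshold of 0.05. limma 3.58.1 (voom) and DESeq2 1.42.0 were alternatives. The test was checked on simulated data. Fam19a2 was matched to Tafa2 in RefSeq by its synonym. Planned comparisons of protein sequences were not made here. CPM of rows that the filter removed use the same library factors.

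The genes and lists were chosen with earlier results of these data known. Named genes were the 3 genes, Nes and Dcx, their neighbours in rank, in profile (prior count 2) and on the chromosome, all members of the closest lists, and for other lists the 2 genes of smallest p and the most abundant 1. Not every gene so named is reported here. Nr4a2, the Cd3 genes, Rbfox3 and the 8-fold limit were chosen after values were seen.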

Additional observations from a re-analysis of the deposited data

How the results depend on the processing

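Total counts of genes passing stayed within 1.5 times of the main count under every alternative run, from 8686 with the filter of 5 CPM to 11450 with library size only. With upper-quartile factors the log2 changes were 3.29 for Sla, 3.08 for Bend6 and 3.39 for Fam19a2, and with library size only 3.18, 2.97 and 3.28, which is about the shift of the median of all genes. Under the other alternatives run, Sla lay from 3.35 to 3.44, Bend6 from 3.12 to 3.24 and Fam19a2 from 3.45 to 3.52. Directions turned for 3 named genes, none of which passed in the alternative. With library size only, Ncor1 was at -0.06 and Sla2 at -0.06. Wisp1, at -0.01, was at 0.00 with DESeq2 size factors, no low-count filter and limma-voom, and ran from -0.35 to 0.35 when 1 library was left out. The cause was not tested.

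The labels do not say whether libraries with the same replicate number were paired. No shared deviation was seen between them (correlation of deviations -0.01). With a replicate block 11206 genes passed, and the log2 changes of Sla, Bend6 and Fam19a2 were 3.39, 3.18 and 3.49. Among the named genes the block added the calls of Sla2 (0.14) and Cbl (-0.17). When 1 library is left out, the lone library is assumed to vary like the others. With 2 libraries a group, the number of replicates limits the precision of every value here.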

Other observations

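Other adaptor genes and other neuron classes were measured in the same libraries. Of all genes tested, 35.8% passed as higher in neurons and 36.9% as higher in NPCs. Of 17 tested adaptor genes with SH2, SH3 or related domains, 11 were higher in neurons and 5 in NPCs, which became 7 in neurons with library size only. Dab1, the reelin pathway adaptor, rose from 132 and 133 CPM to 528 and 555 CPM, a log2 change of 2.03 ± 0.06 (edgeR adjusted p = 9.4e-15). Grap, an adaptor known from blood cells, fell from 7.85 and 6.47 CPM to 0.123 and 0.116 CPM.

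Of 14 interneuron genes, 5 were higher in neurons, 5 in NPCs and 4 did not pass, a split near that of all genes tested. Npy, a neuropeptide gene of interneurons, had a log2 change of 1.73 ± 0.14. Of 8 tested genes of Cajal-Retzius cells, the early neurons of the cortical surface, 6 were higher in neurons and 2 in NPCs. Reln, which encodes the secreted guide of migration reelin, rose from 37.4 and 37.7 CPM to 143 and 146 CPM, a log2 change of 1.94 ± 0.06.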
